A study of Mus musculus with 2 samples.

Results

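Expression of 10 markers of mammary stem and progenitor cells was followed in cultured mouse mammary basal cells: Procr, Cd44, Cd24a, Ly6a, Prom1 and Tspan8, which code for proteins of the cell surface, and Bcl11a, Bcl11b, Sox9 and Sox10, which code for transcription factors. They were found by symbol as 10 of the 49492 genes of the count table, and all 10 were among the 19233 genes with at least 10 reads over both libraries that were tested. The basal cells came from wild-type adult female mice and were sorted by FACS as cells that lacked blood and endothelial antigens, carried CD24 and were high in CD29, the product of Itgb1. They were grown in 3D in a gel matrix with EGF and an insulin supplement, either alone (ctrl) or with M2-like macrophages (M2), which had been raised from bone marrow, polarised with IL-4 and IL-13, and sat behind the porous membrane of an insert. The co-culture lasted 11 to 14 days, and the macrophages were replaced at intervals during it. Each group held 1 library, with 26912610 reads for ctrl and 29413844 for M2, so every difference below lies between 2 libraries and has no replicate check. The labels do not say how many mice or wells a library came from, and they give no length for the ctrl culture, for which the methods hold only a general range for 3D colony cultures.

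The mammary epithelium has an outer basal layer and an inner luminal layer, and stem cells able to rebuild the gland on transplantation are found in the basal layer. Procr codes for a receptor of protein C, and cells that carry it are counted among the dividing stem cells. Bcl11b codes for a zinc finger factor that is used as a mark of stem cells at rest. Bcl11a, Sox9 and Sox10 are tied to stem and progenitor states, CD24 and CD44 are surface glycoproteins used to sort mammary cells, Sca1 (the product of Ly6a) and prominin-1 (Prom1) are used to tell subsets of luminal and basal cells apart, and Tspan8 is a tetraspanin used to mark a quiescent fraction of basal stem cells. In bulk RNA, fewer cells of a type and less RNA per cell cannot be told apart.

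For the markers that differed most between the libraries, the sequence before the start site is shown as context. RefSeq start sites on GRCm38.p6 were held for 6 of the 10 genes (Cd44, Procr, Prom1, Tspan8, Bcl11a and Bcl11b), and only bases outside annotated exons are printed, 5′ to 3′ on the strand of the gene. Capitals mark a match to a searched motif. The Cd44 sequence is chr2:102901666-102901915 (minus strand), that of Procr is chr2:155750967-155751116 (plus strand), that of Prom1 is chr5:44094769-44095018 (minus strand), before the second of its start sites and inside the gene, and that of Tspan8 is chr10:115817034-115817270 (plus strand).
Cd44: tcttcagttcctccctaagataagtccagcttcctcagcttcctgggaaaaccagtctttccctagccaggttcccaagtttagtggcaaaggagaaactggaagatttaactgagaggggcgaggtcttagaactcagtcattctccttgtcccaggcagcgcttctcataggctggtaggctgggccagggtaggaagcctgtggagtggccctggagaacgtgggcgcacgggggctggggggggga
Procr: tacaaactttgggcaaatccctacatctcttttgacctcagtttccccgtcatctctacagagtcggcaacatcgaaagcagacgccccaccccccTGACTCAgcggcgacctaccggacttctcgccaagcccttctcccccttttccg
Prom1: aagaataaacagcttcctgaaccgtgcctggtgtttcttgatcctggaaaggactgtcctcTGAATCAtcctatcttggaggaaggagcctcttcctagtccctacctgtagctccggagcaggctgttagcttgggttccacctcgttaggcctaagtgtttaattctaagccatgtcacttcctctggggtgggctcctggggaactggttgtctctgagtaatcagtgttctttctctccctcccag
Tspan8: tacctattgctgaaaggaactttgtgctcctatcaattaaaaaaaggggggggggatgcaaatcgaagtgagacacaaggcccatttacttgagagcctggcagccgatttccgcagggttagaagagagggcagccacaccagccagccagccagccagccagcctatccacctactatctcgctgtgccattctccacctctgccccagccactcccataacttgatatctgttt

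The letters searched, on both strands, were TGANTCA for AP-1, TTCNNNGAA for STAT factors, GGGCGG for the GC box, TATAAA for the TATA box, AACAAT for SOX factors and CTTTGAT for TCF/LEF factors, besides an NF-kB motif. Of 32851 promoters, taken as the 250 bases before each RefSeq start, 6.75% held the AP-1 letters, 7.02% those of STAT, 32.7% the GC box, 12.4% the TATA box, 9.42% the SOX letters, 3.21% those of TCF/LEF and 3.90% the NF-kB motif. Procr and Prom1 each held the AP-1 letters in the printed bases, at 154 and 189 bases before the RefSeq start, respectively. For Procr, annotated exon bases that are not printed lie between the printed bases and that start. None of the 7 motifs matched in the printed bases of Cd44 and Tspan8. Among bases not printed, Bcl11a had a STAT match at 224 bases before its start and GC boxes at 99 and 32. The other start site of Prom1 had the AP-1 letters at 88 bases and a GC box at 62, within annotated exons. A match to these letters describes the sequence only.

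To compare the markers between the libraries, reads were scaled by effective library size (TMM) and given as CPM, which puts both libraries on a common scale. A gene was called when the reads, in an exact binomial test with both tails, gave an adjusted p under 0.05 (Benjamini-Hochberg over all 19233 genes) and the levels differed at least 2-fold. This test compares the 2 libraries and not the conditions, and its 95% intervals cover counting error only. Prom1, Cd44 and Procr were higher in the M2 library, Tspan8 was lower, and the other 6 markers differed by less than 2-fold. By this rule 8.16% of all genes tested were called higher and 6.55% lower, beside which stood 3 and 1 of the 10 markers. The median log2 fold difference of the markers was 0.06, with 5 markers above 0 and 5 below, and that of all genes tested was −0.0032. The smallest difference among the 10 was 1.25-fold. Split by role, 3 of the 6 surface markers were called higher and 1 lower, and none of the 4 transcription factors was called. A difference between the roles was not tested. Sox10, Sox9 and Bcl11a were 1.25-fold to 1.85-fold lower, and Bcl11b was 1.47-fold higher.

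**Figure D1:**
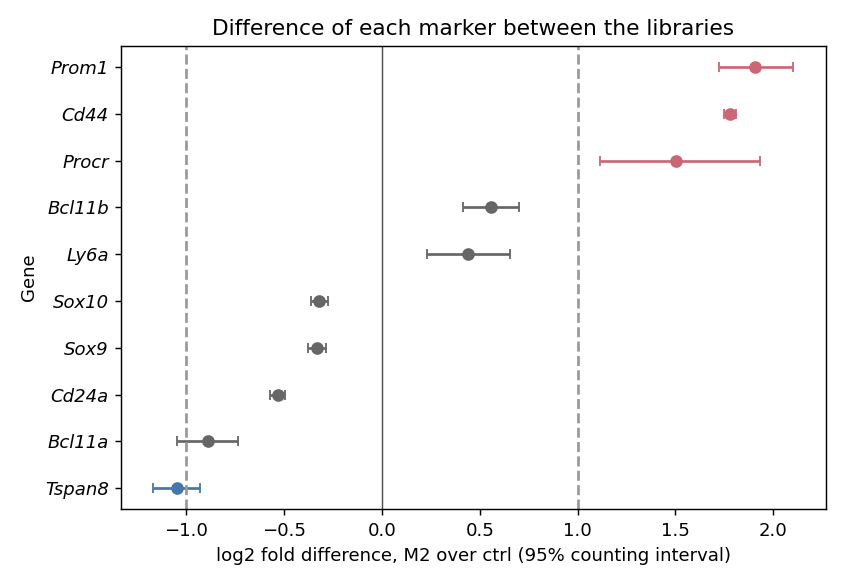
log2 fold difference of each marker (x axis, M2 over ctrl, bars for the 95% interval of counting error, dashed lines at 2-fold), with markers called higher in red, called lower in blue and the rest in grey. Prom1, Cd44 and Procr lie to the right of the 2-fold line with their whole intervals, and the interval of Tspan8 reaches across it.

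Cd44 codes for the receptor of hyaluronan and osteopontin (chr2:102811141-102901665, minus strand). It had 10330 reads in ctrl and 37200 in M2, or 376 and 1291 CPM. The M2 library held 3.43-fold more (95% interval 3.36 to 3.51), a log2 fold difference of 1.78, and Cd44 went from place 906 to place 263 when the genes tested were ordered by level per length. Among the 104 genes with at least as many reads as Cd44, 6 (Cd44 included) had a log2 fold difference as high. Its reads made up 23.1% of all reads of the 10 markers in ctrl (exact binomial 95% interval 22.7 to 23.5) and 56.9% in M2 (56.5 to 57.3). The 10 markers together took 0.166% of all reads in ctrl and 0.222% in M2. Without Cd44 the order was the other way round, with 0.128% in ctrl and 0.0959% in M2.

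Genes for the ligands of CD44 and for the splicing of its transcript were looked at beside it. Of 12 listed genes 10 were tested, 3 were called higher and none lower, with a median log2 fold difference of 0.47. Spp1, which codes for the ligand osteopontin, had 4199 reads in ctrl and 21651 in M2 (log2 fold difference 2.30, interval 2.25 to 2.35). Has2, a hyaluronan synthase, had 399 and 1348 reads (1.68, 1.52 to 1.85), and Hmmr, which codes for another hyaluronan binding protein and is also known as a mitotic gene, had 362 and 1168 (1.62, 1.45 to 1.79). The other tested hyaluronan synthases did not pass, with 7 and 12 reads for Has1 and 315 and 322 for Has3. Esrp1 and Esrp2, epithelial splicing factors that act on Cd44 transcripts, gave −0.14 and −0.56 and were not called. Counts per gene do not resolve the isoforms of Cd44.

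Cd24a codes for the small glycoprotein CD24, which was also a criterion of the sort that gave the starting cells of both cultures (chr10:43578284-43584265, plus strand). It had 12984 reads in ctrl and 9417 in M2, or 473 and 327 CPM. The log2 fold difference was −0.53 (interval −0.57 to −0.49), a 1.45-fold lower level in M2 that did not reach the 2-fold threshold. The ratio of Cd24a to Cd44 per kilobase of exon bases was 3.30 in ctrl and 0.665 in M2. On the log2 scale this ratio of ratios was −2.31 (exact conditional interval −2.36 to −2.26), so that the marker with the higher level per length was Cd24a in ctrl and Cd44 in M2. Itgb1, which codes for the other antigen of the sort, CD29, had 27481 and 45655 reads (log2 fold difference 0.66) and was not called.

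Procr (chr2:155751117-155755471, plus strand) had the fewest reads of the 10 markers, with 68 in ctrl and 204 in M2, or 2.48 CPM (interval 1.92 to 3.14) and 7.08 CPM (6.14 to 8.12). The intervals of the libraries did not overlap, and the M2 level was 2.83-fold higher (2.16 to 3.82; log2 fold difference 1.502, 1.11 to 1.93; adjusted p = 8.67e-15, exact binomial test). Its level per length stood at 1.22 RPKM (CPM per kilobase of the exon bases of the gene) in ctrl and 3.49 RPKM in M2. In both libraries it lay below the median level of the genes tested (at percentiles 30.2 and 48.5). Of 10 genes of the protein C and tissue factor pathway, 7 were tested and Thbd, which codes for thrombomodulin, was the 1 called higher, from 6 and 22 reads (log2 fold difference 1.65, 0.46 to 3.40). None was called lower. F3, the tissue factor gene, gave −0.18, F2rl1, a protease-activated receptor, −0.70, and Pros1, the cofactor protein S, 0.27, none of them called.

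Procr is also a gene of endothelial cells, so that their markers were looked at beside it. The 10 endothelial genes had 251 reads in ctrl and 3382 in M2, of which Flt1 had 158 and 3263. Of the 6 tested, Flt1 (log2 fold difference 4.29) and Pecam1 were called higher, while Kdr and Cdh5 were called lower. Pecam1 had 33 and 76 reads, or 0.193 and 0.423 RPKM, Kdr had 11 and 0, Cdh5 had 11 and 2, and Cldn5 had none in either library. Egfl7 had 28 and 24 reads and was not called. The part of these genes in the Procr difference was not tested.

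Prom1 codes for the pentaspan membrane protein prominin-1, or CD133 (chr5:43993620-44102032, minus strand). It had 285 reads in ctrl and 1125 in M2, or 10.4 and 39.0 CPM. This was the largest fold difference of the 10 markers, 3.75-fold higher in M2 (3.30 to 4.30), with a log2 fold difference of 1.91 (1.72 to 2.10; adjusted p = 3.01e-108, exact binomial test). Prom1 shared 424 of its 7175 exon bases, or 5.91%, with the antisense gene Gm16401, which had 4 reads in ctrl and 34 in M2. The use of strand in the counting is not given in the sources used here, so reads of these bases cannot be assigned to either gene. Prom2, the other prominin gene and a luminal marker, gave 4227 ctrl reads against 904 M2 reads, and its log2 fold difference was −2.29 (−2.40 to −2.19). The relatives thus went in opposite directions between the libraries.

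Prom1 and Ly6a are used in the mammary gland as markers of hormone-sensing luminal cells, so the genes of that lineage were set beside them. Of 14 listed genes 13 were tested, 7 were called lower in M2 and none higher, with a median log2 fold difference of −1.29. Pgr, the progesterone receptor gene, had 3195 and 575 reads (−2.54), Esr1, the oestrogen receptor gene, had 1028 and 281 (−1.94), and Areg, which codes for a growth factor made in response to oestrogen, had 1137 and 315 (−1.92). Gata3, a luminal transcription factor, gave −0.11 and was not called, nor were Cd9 and Ly6d. By sign alone, 11 of the tested genes were lower in M2 and 2 were higher. The higher ones, neither of them called, were Cited1 (197 and 369 reads, 0.83) and Wnt4 (73 and 81 reads, 0.08). Prom1 thus differed in the direction opposite to the called genes of the lineage it is used to mark.

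Ly6a (chr15:74994877-74998031, minus strand) had 314 reads in ctrl and 447 in M2, or 11.4 CPM (10.2 to 12.8) and 15.5 CPM (14.1 to 17.0). The log2 fold difference of 0.44 (0.23 to 0.65; adjusted p = 1.05e-04, exact binomial test) was a 1.36-fold higher level and was not called. The ratio of Prom1 to Ly6a was higher in M2 by 1.47 on the log2 scale (1.18 to 1.76). Ly6a belongs to a gene family with close copies, in which reads may be split between copies. Of the 14 other family members listed, 9 were tested, 1 was called higher and 1 lower, and the median was −0.40. Plaur, which codes for the urokinase receptor, had 109 and 726 reads (2.66, 2.37 to 2.97), and Ly6g6c had 360 and 99 (−1.92). The near copy Ly6c1 had 14 and 6 reads, and the abundant Ly6e, Ly6d and Lypd3 gave 0.08, −0.40 and −0.43 and were not called.

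Tspan8 (chr10:115817284-115849893, plus strand) was the only marker of the 10 called lower. It had 1737 reads in ctrl and 880 in M2, or 63.2 and 30.5 CPM. The level was 2.07-fold lower in M2 with an interval of 1.91 to 2.25 that includes the 2-fold threshold (log2 fold difference −1.05, −1.17 to −0.93; adjusted p = 4.38e-72, exact binomial test). Among 24 other tetraspanins, of which 21 were tested, 2 were called higher and 4 lower, with a median of 0.08. Tspan18 had 43 reads in ctrl and 1184 in M2 (4.68, 4.28 to 5.19), and Tspan1, also listed as a luminal progenitor gene, had 49 and 176 (1.75). Tspan15, which directs the protease ADAM10, had 1483 and 184 (−3.07), and Tspan13 had 1926 and 540 (−1.90). The tetraspanins with the highest levels per length, Cd9, Cd63 and Cd81, gave −0.27, 0.13 and 0.19 and were not called. The ratio of Procr to Tspan8 was higher in M2 by 2.57 on the log2 scale (2.14 to 3.00).

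Next, the transcription factors were compared. Bcl11a (chr11:24078056-24174123, plus strand) had 937 reads in ctrl and 530 in M2, or 34.1 and 18.4 CPM, and Bcl11b (chr12:107910403-108003602, minus strand) had 654 and 1010, or 23.8 and 35.0 CPM. The log2 fold difference of Bcl11a was −0.89 (−1.05 to −0.74; adjusted p = 3.92e-30, exact binomial test), a 1.85-fold lower level, and that of Bcl11b was 0.56 (0.41 to 0.70; adjusted p = 4.52e-14), a 1.47-fold higher level. Neither was called, and the paralogs went in opposite directions. The ratio of Bcl11a to Bcl11b per kilobase was 0.882 in ctrl and 0.323 in M2, a difference of −1.45 on the log2 scale (−1.66 to −1.24). The ratio of Procr, the marker of active stem cells, to Bcl11b, that of resting ones, was higher in M2 by 0.96 (0.53 to 1.40), while both genes had a higher CPM in M2. Bcl11a shared 316 of its 13175 exon bases, or 2.40%, with the antisense gene 4930538E20Rik, which had 43 and 29 reads.

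Bcl11b is also a T cell factor and Bcl11a a B cell factor. The 9 genes of the T lineage list had 293 reads in ctrl and 351 in M2, of which Thy1 had 257 and 253, and Lck, with 24 and 89, was the 1 called higher. Trac, a T cell receptor gene, had 11 and 8 reads. Cd3d, Cd3g, Cd4 and Cd2 were at 0 in both libraries, as was Ptprc, which codes for the antigen CD45 of all white blood cells. The 6 genes of the B lineage list had 8 and 20 reads, of which Cd79a had 8 and 16, and Cd79b, Pax5 and Cd22 were at 0 in both.

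Sox9 (chr11:112782224-112787760, plus strand) and Sox10 (chr15:79154913-79164490, minus strand), members of the SoxE group, had differences of like size and direction. Sox9 had 8148 reads in ctrl and 6791 in M2, or 297 and 236 CPM, and Sox10 had 9278 and 7795, or 338 and 270.5 CPM. The log2 fold differences were −0.33 (−0.38 to −0.29) for Sox9 and −0.32 (−0.36 to −0.28) for Sox10, that is 1.26-fold and 1.25-fold lower levels in M2, and neither was called. The ratio of Sox9 to Sox10 differed between the libraries by −0.01 on the log2 scale, with an interval of −0.08 to 0.05. The third SoxE gene, Sox8, gave −0.58 from 352 and 246 reads. Of 14 other Sox genes 11 were tested and Sox11, a SoxC factor of embryonic tissues, was the 1 called higher, with 108 and 1163 reads (3.35, 3.07 to 3.66). No Sox gene was called lower. Of the most abundant of the list, Sox4, another SoxC gene, gave 0.19, Sox13 gave −0.78 from 2692 and 1649 reads, and Sox12 gave −0.17, and none was called. Sox10 is also a gene of Schwann cells and melanocytes, of whose 11 listed genes 7 were tested and none called, with Foxd3, Dct, Mlana and Tyr at 0 in both libraries. Their reads summed to 5807 in ctrl and 4004 in M2, most of them from Erbb3 (4558 and 2821), a receptor that epithelial cells also make. Mbp and Mitf gave −0.24 and −0.01.

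Levels per length were then used to order the markers within each library. In ctrl the order from the highest was Cd24a (183 RPKM), Sox10 (124.5), Sox9 (71.7), Cd44 (55.5), Tspan8 (41.5), Ly6a (9.49), Bcl11b (2.94), Bcl11a (2.59), Prom1 (1.45) and Procr (1.22). The counting intervals of Bcl11b and Bcl11a overlapped, as did those of Prom1 and Procr, so their order in ctrl is not resolved. In M2 the order was Cd44 (190.5 RPKM), Cd24a (127), Sox10 (99.7), Sox9 (57.0), Tspan8 (20.1), Ly6a (12.9), Prom1 (5.44), Bcl11b (4.32), Procr (3.49) and Bcl11a (1.40), with no overlap between neighbours. Cd44 moved from the fourth place to the first. Prom1, which shared the last places with Procr in ctrl, stood above Bcl11b in M2, and Bcl11a was last there by level per length, though not by CPM, which takes no account of length. Tspan8 and Ly6a kept their places, and Cd24a, Sox10 and Sox9 kept their order among themselves.

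**Figure D2:**
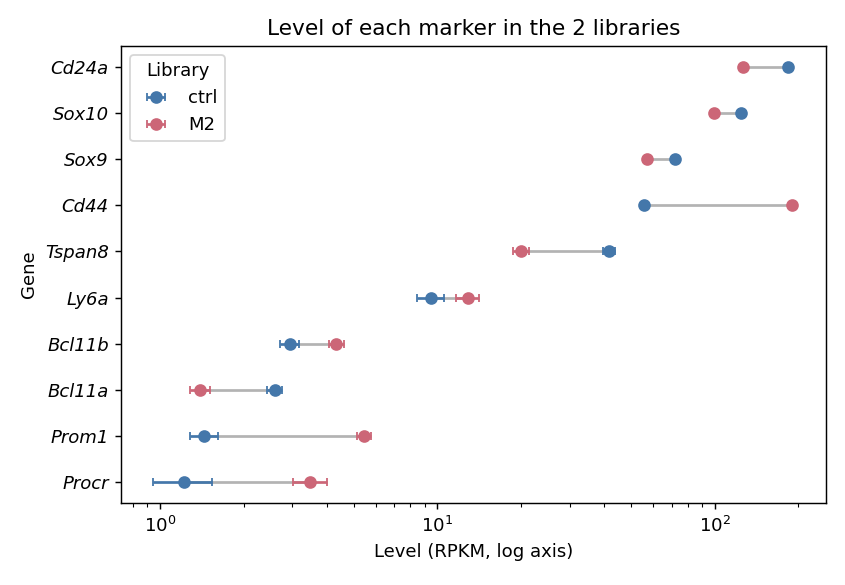
Level of each marker in RPKM (x axis, log scale) in ctrl (blue) and M2 (red), with bars for the 95% interval of counting error. Cd44 goes from 55.5 to 190.5 RPKM and passes Cd24a, Sox10 and Sox9, which are lower in M2.

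Since genes with few reads spread more, each marker was also placed among tested genes of like mean level. Of the 10, 2 lay above the 95th percentile of their level class (Prom1 and Cd44), 2 below the 5th (Tspan8 and Bcl11a) and 6 between. Procr, although called higher, lay within this range, since its class of 962 genes had a 95th percentile of 1.56 on the log2 scale. Bcl11a lay below a 5th percentile of −0.83 although its difference was under 2-fold.

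**Figure D3:**
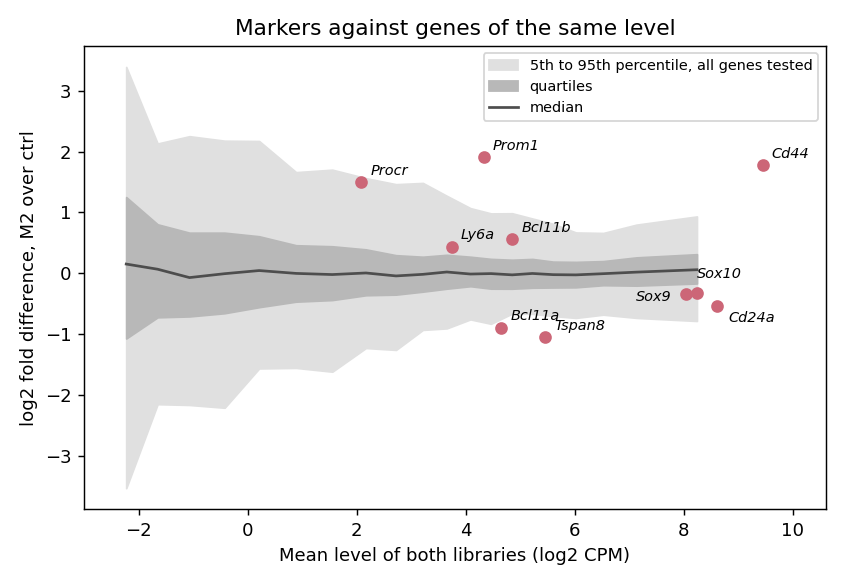
log2 fold difference of the markers (red points, y axis) against their mean level over both libraries (x axis, log2 CPM), over the 5th to 95th percentile (light grey), the quartiles (dark grey) and the median (line) of all genes tested in 20 classes of mean level. Prom1 and Cd44 lie above the light band, Tspan8 and Bcl11a below it, and Procr just inside its upper edge.

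Other genes tied to the same cell states were mixed in direction. Of 24 further genes of basal stem and repopulating cells, 23 were tested, 2 were called higher and 2 lower, with a median of 0.31. Wnt10a, a Wnt ligand, had 14 and 121 reads (log2 fold difference 2.95), and Axin2, a target gene of Wnt signalling, had 16 and 68 (1.95). Lgr5, a receptor for R-spondins and itself a Wnt target in other tissues, had 3322 and 602 (−2.53). Cdh5, an endothelial cadherin gene, was the other gene called lower, at 11 and 2 reads, with an upper limit of −0.33. The most abundant, Itgb1, Id4 and Itga6, gave 0.66, 0.33 and 0.45 and were not called.

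Of 18 genes of luminal progenitors all were tested, 6 were called higher and 5 lower, with a median of 0.17. Those called higher included Trf (4038 and 65294 reads, 3.95), which codes for transferrin, Cd14 (803 and 9114, 3.43), a co-receptor for bacterial lipopolysaccharide, Lcn2 (12343 and 76343, 2.56), an iron-carrier binding protein, and Itga2 (521 and 1933, 1.82), the collagen receptor subunit CD49b. Wfdc18, with the highest level in ctrl of this list, was called lower (49957 and 15995, −1.71), and so were Kit (15110 and 4973, −1.67), the stem cell factor receptor gene, and Elf5 (5704 and 2776, −1.11), a factor of alveolar progenitors. The last pair was named after the values were seen.

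The identity genes of both layers had medians near that of all genes. Of 10 basal genes, Krt17 was called higher (1.39) and Oxtr, the oxytocin receptor gene, lower (−2.18), while Krt14, Krt5 and Acta2 gave −0.32, 0.50 and 0.04, with a median of −0.01. Of 10 luminal genes, Krt7 was called higher (1.19) and none lower, with Krt8, Epcam and Krt18 at 0.21, 0.06 and −0.05 and a median of 0.04.

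**Figure D4:**
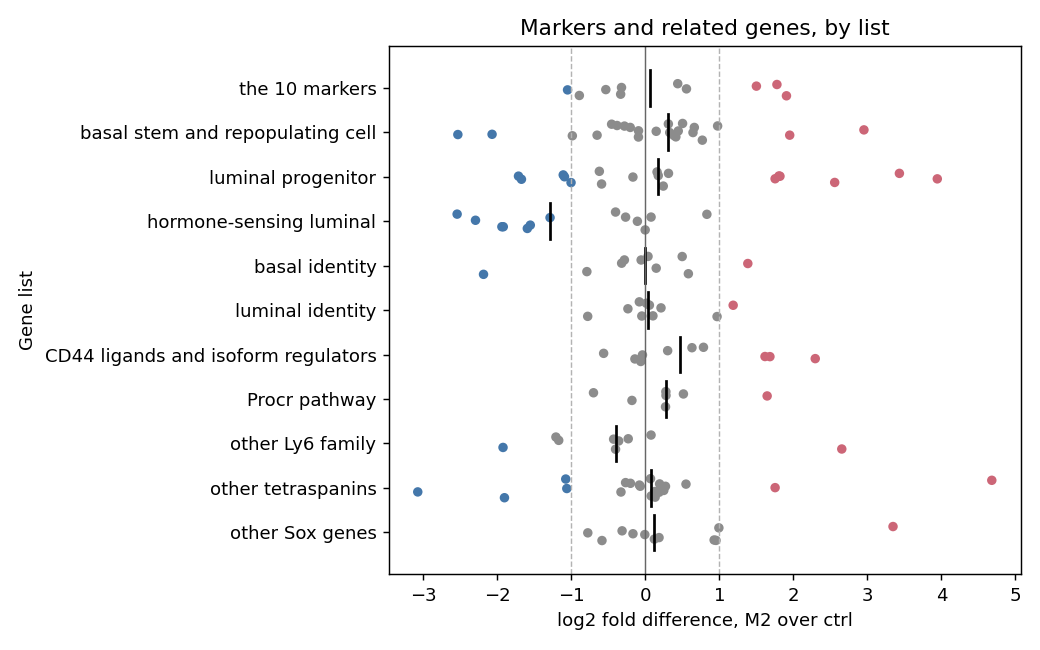
log2 fold difference (x axis, M2 over ctrl) of every tested gene of the 10 markers and of 10 related lists (rows), with genes called higher in red, called lower in blue and the rest in grey, dashed lines at 2-fold and black bars at the median of each list. The hormone-sensing list has no gene called higher and a median of −1.29, and the medians of the other lists lie between −0.40 and 0.47.

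Markers of the other cells that the cultures could hold also differed. Of 19 macrophage genes, 15 in ctrl and 12 in M2 had at most 3 reads, and Tyrobp, Fcer1g, Adgre1, Ptprc, C1qb, C1qc and Chil3 were at 0 in both libraries. Their summed level was 65.2 CPM in ctrl and 84.6 CPM in M2, most of it from Arg1 (1507 and 2090 reads), followed by Cd68 (170 and 165) and Csf1r (94 and 92), none of them called. Of the 6 tested, 2 were called higher, Aif1 with 3 and 40 reads and Cd163 with 2 and 30, for which the lower limits of the log2 fold difference were 2.02 and 1.86. Of 13 fibroblast genes, all tested, 7 were called lower and 1, Dcn, higher (51 and 157 reads), with a median of −1.56 and a summed level of 4368 CPM in ctrl and 2891 in M2. Col6a3 (9433 and 523 reads, −4.24), Col14a1 (−3.12), Col3a1 (−2.61), Col5a2 (−1.59) and Pdgfrb (−2.28) were among those called lower. Postn, with 72824 and 71795 reads, held most of the summed level in both libraries and gave −0.09. The part of these genes in the differences of the 10 markers was not tested.

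The spread between replicate cultures could not be measured, so the calls were repeated with an assumed one. With a coefficient of variation set to 0.2 (edgeR exact test, Benjamini-Hochberg adjustment), 5.01% of genes were called higher and 3.59% lower. Prom1 (adjusted p = 3.28e-04), Cd44 (adjusted p = 7.03e-04) and Procr (adjusted p = 0.0182) were still called higher, and Tspan8 (adjusted p = 0.114) was not called. With 0.4, 0.910% of genes were called higher and 0.676% lower, and none of the 10 markers was called, the smallest adjusted p being 0.556 for Prom1.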

How the data were processed

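RNA of cultured mouse mammary basal cells was sequenced by the authors, and the table they deposited holds raw read counts of genes, not normalized, for 1 ctrl and 1 M2 library. The submitters' processing notes name the build GRCm38 (mm10). The aligner, counter, annotation and use of strand are not given in the sources used here. The labels name a column kit for the RNA, the study's methods another reagent, and the series description speaks of a microarray, although the values are sequencing counts. In the table, 26 gene names had been turned into dates by a spreadsheet.

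Groups were taken from the labels. Genes with at least 10 reads over both libraries were kept (19233). Effective library sizes came from TMM (edgeR 4.0.16, R 4.3.3). The test of a gene was an exact binomial test with both tails (SciPy 1.17.1), whose null share was the share of the effective library sizes, with Benjamini-Hochberg adjustment over all genes kept. Log2 fold differences used a pseudocount of 1 read, and their intervals were exact (Clopper-Pearson). Intervals of levels were exact Poisson, those of ratios exact conditional and those of shares of reads Wilson. All intervals were 95% and covered counting error only. RPKM used the gene lengths of the table, which count the exon bases of a gene and not the length of a single transcript. The floor of 3 reads was 0.109 CPM in ctrl and 0.104 in M2. The edgeR exact test with an assumed coefficient of variation, other scalings, filters, pseudocounts and fold thresholds were alternatives. The scripts were tested on simulated data.

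The markers and the 17 gene lists beside them were chosen with earlier results of these data known. Of each list, the called genes with the largest differences (at most 4) and the 3 with the highest level were named, besides Itgb1, Ptprc, Pecam1, Sox8, Ly6c1, Ly6e and Prom2. Genes at 0 and genes outside this rule are named for what they hold and were chosen after their values were seen.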

Additional observations from a re-analysis of the deposited data

How the results depend on the processing

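Under 14 alternative settings, none of the 140 values of the 10 markers changed direction, 130 kept their side of the threshold, 9 lost their call and 1 gained it. The filters and fold thresholds leave a log2 fold difference as it was, so under them no direction could change. The assumed coefficients of variation shared a single log2 fold difference per gene. These settings bear on the calls only. With a fold threshold of 1.5 the markers called lower were 2, Bcl11a joining Tspan8 at −0.89. With a threshold of 4 there were 0 called higher and 0 lower. With an assumed coefficient of variation of 0.2 the markers called lower were 0, Tspan8 (−1.05) being lost, and with 0.4 there were 0 higher and 0 lower. All other scalings, filters and pseudocounts, an assumed 0.1, and removal of the trend with gene length left 3 called higher and 1 lower. The log2 fold difference ranged from 1.43 to 1.51 for Procr, 1.84 to 1.95 for Prom1, 1.71 to 1.82 for Cd44 and −1.12 to −1.05 for Tspan8 over these settings, with the highest values of Prom1 and Cd44 (1.95 and 1.82) coming from removal of the length trend, and other scalings moved the median of all genes tested to between −0.07 and 0.00. Ordered by CPM without gene length, 5 of 10 places were kept in ctrl and 4 of 10 in M2.

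No paired analysis was possible because only 1 library stood on each side, and for the same reason no replicate was left out. The DESeq2 test was not run, since it needs replicates to estimate the spread. Depth limits Procr most among the markers, with 68 reads in ctrl.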
